A study of Canis lupus familiaris with 8 samples.

Results

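IFNG, IL12RB2 and IL18R1, 3 genes of the T helper 1 (Th1) axis, were followed through single blood T cells of healthy dogs. They were read from the gene rows that carry these names (identifiers ENSCAFG00000000408, ENSCAFG00000018539 and ENSCAFG00000002138), 3 of 20257 rows, in all 4 count matrices. IFNG encodes interferon-gamma, the cytokine that defines Th1 and many cytotoxic T cells. IL12RB2 encodes the signalling chain of the interleukin-12 receptor, which pairs with IL12RB1 and acts through JAK2 and TYK2 on the transcription factor STAT4. IL18R1 encodes the ligand-binding chain of the interleukin-18 receptor, which pairs with IL18RAP and signals through MYD88, the IRAK kinases and TRAF6. Interleukin-12 and interleukin-18 act together on T cells and natural killer cells to raise interferon-gamma, with T-bet (TBX21) and EOMES as the transcription factors best known for driving the IFNG gene.

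The cells came from the blood of 4 healthy Beagles, dog 1 (female, 5 years), dogs 2 and 3 (male, both 7 years) and dog 4 (male, 9 years), with no treatment. Viable TCRαβ+ T cells were sorted, frozen, thawed and sequenced by 5′ single-cell RNA-seq together with their T cell receptor chains, with 1 library of each kind per dog. Age and sex differ between single dogs, so neither was tested, and the dog was the replicate throughout (n = 4). After removal of cells outside 500 to 20000 UMIs (unique molecular identifiers, the counted RNA molecules) or with more than 10% mitochondrial UMIs, 31909 cells remained, 7096 to 8454 per dog, with median depths of 3599 to 3931.5 UMIs. Cells with at least 1 CD4 UMI and no CD8A UMI (CD4+ sp, single-positive) numbered 13247, and cells with the reverse (CD8A+ sp) numbered 6427. The other 11510 cells had neither (dn) and 725 had both (dp). The study saw more dn cells than earlier flow cytometry would predict. It could not tell true dn cells from cells whose CD4 went undetected, so dn is not read as a lineage here. CD3E was present at 1175 to 1372 CPM (UMIs of a gene scaled to a total of 1000000 UMIs in the same cells) in both single-positive lineages. Pairs of libraries shared 81 to 113 cell barcodes, and no doublet caller was run.

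All 3 genes were sparse transcripts. At least 1 IFNG UMI was found in 346 CD4+ sp cells (29, 99, 44 and 174 in dogs 1 to 4) and in 232 CD8A+ sp cells (51, 44, 35 and 102). These cells held 519 and 319 IFNG UMIs, and 68.8% and 75.9% of them held a single one. The largest amount in 1 cell was 14 IFNG UMIs, in a CD4+ sp cell of dog 3. Most IFNG+ cells were therefore called on 1 molecule. A cell without an IFNG UMI cannot be taken as a cell without the transcript.

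In CD4+ sp cells IFNG stood at 3.37, 8.82, 6.71 and 19.0 CPM in dogs 1 to 4, and in CD8A+ sp cells at 23.3, 8.82, 6.82 and 17.3 CPM. The lineages overlapped, and dog 1 was the animal in which they were far apart. The fitted difference (CD8A+ sp minus CD4+ sp) was 0.50 on the log2 scale and did not pass the test (edgeR adjusted p = 0.594), and without dog 1 it was -0.073. IL12RB2 was at 4.21, 43.5, 26.0 and 74.1 CPM in CD4+ sp and at 109, 92.8, 111 and 166 CPM in CD8A+ sp cells. It was higher in the CD8A+ sp cells of all 4 dogs, by 1.09 to 4.65 log2 units, with the widest gap in dog 1, whose CD4+ sp cells were nearly without it. The difference was 1.70 ± 0.59 (log2, SE; edgeR adjusted p = 0.0894), and 1.91 with the dog as a block in the fit (adjusted p = 0.0126). Without dog 1 it passed, at 1.36 (adjusted p = 0.0459). Over all alternatives its adjusted p ran from 0.0126 to 0.277, so the call depended on the setting. IL18R1 was at 54.4, 88.0, 81.0 and 126 CPM in CD4+ sp and at 141, 99.98, 119 and 86.0 CPM in CD8A+ sp cells. It was higher in the CD8A+ sp cells of dogs 1 to 3 and lower in those of dog 4, and did not pass (0.34, adjusted p = 0.381). Thus 0 of 3 members passed without the block and 1 of 3 with it, where 14.1% and 27.1% of the 10118 genes tested did.

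**Figure D1:**
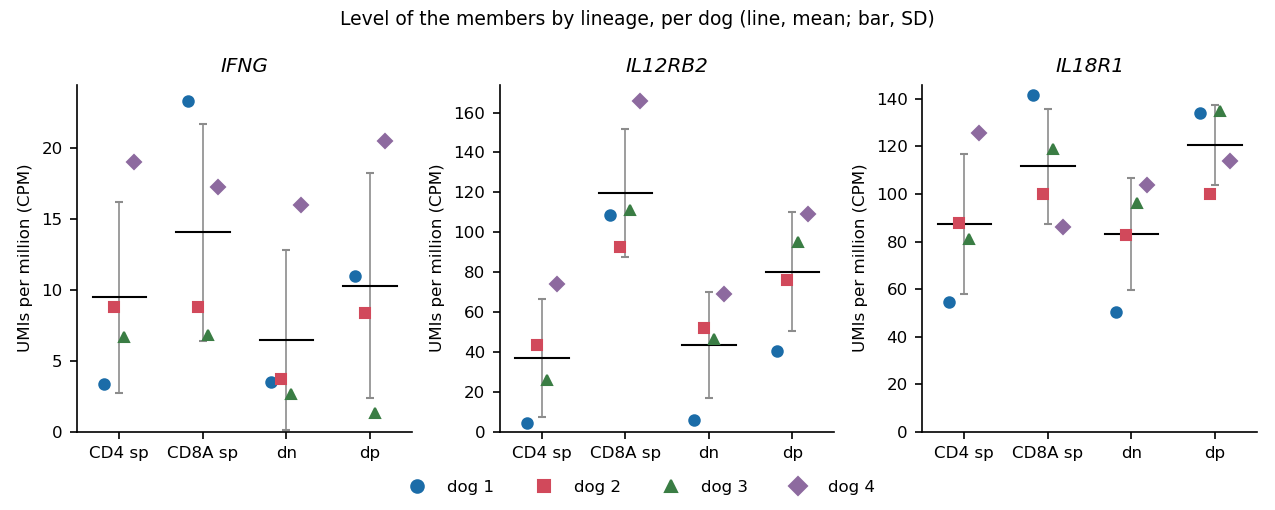
CPM of IFNG, IL12RB2 and IL18R1 (y axis, 1 panel per gene) in CD4+ sp, CD8A+ sp, dn and dp cells (x axis), with 1 point per dog and the mean and SD (bars cut at 0). IL12RB2 lies higher in the CD8A+ sp than in the CD4+ sp cells of each dog, while IFNG and IL18R1 overlap between the lineages.

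As shares of cells, IFNG was detected in 2.63 ± 1.99% within CD4+ sp and 4.26 ± 2.53% within CD8A+ sp (mean ± SD, n = 4). IL12RB2 was found in 10.4 ± 7.58% and 27.8 ± 4.55%, and IL18R1 in 23.8 ± 8.27% and 29.6 ± 3.24%. Median depths were close, at 3747 to 4091.5 UMIs in CD4+ sp and 3586.5 to 3932 UMIs in CD8A+ sp cells. Free RNA in droplets adds UMIs to cells that do not express a gene. Its amount was not measured. CD4+ sp cells with both CCR7 and LEF1, genes of naive T cells, held an IFNG UMI in 0.37 ± 0.15%, an IL12RB2 UMI in 2.22 ± 2.97% and an IL18R1 UMI in 11.2 ± 7.49% of cells at median depths of 3553 to 3731 UMIs. These cells may express the genes themselves, so their shares cannot be read as background. In dp cells IFNG was at 10.3 ± 7.95, IL12RB2 at 80.2 ± 29.9 and IL18R1 at 121 ± 16.9 CPM, and in dn cells at 6.48 ± 6.37, 43.5 ± 26.8 and 83.2 ± 23.7 CPM. Cells with both genes were the deepest (medians 5418 to 5955 UMIs), and droplets with more than 1 cell cannot be told apart from true dp cells there.

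Around the members, listed genes were compared between the lineages in the same fit. Of the 5 listed genes of the IL-12 receptor and its signal, STAT4 rose in CD8A+ sp cells (0.35, 249 to 318 CPM, adjusted p = 0.0448) and JAK2 fell (-0.49, adjusted p = 0.0202). With the block IL12RB1 (0.97) and TYK2 (0.30) passed too, so that 4 rose and 1 fell. Of the 8 genes of the IL-18 receptor and its signal, IL18RAP, the partner chain of IL18R1, rose by 1.24 log2 units (20.6 to 49.0 CPM, adjusted p = 0.0140), while IRAK2 fell by 0.53. Among 6 measured Th1 factors, 3 rose: TBX21 by 2.87, EOMES by 4.18 and RUNX3, which supports cytotoxic fate, by 0.98. Of 10 Th1 cytokines and chemokine receptors 4 rose, the chemokines CCL5 (5.75), CCL4 (5.01) and CCL3 (6.56) and the receptor CXCR6 (1.44), and IL2, a T cell growth factor, fell by 1.33 (adjusted p = 0.0130). All 11 of 11 tested cytotoxic genes rose, GZMB by 7.38 and GZMK by 2.77 log2 units. Markers of natural killer cells summed to 0 to 1.47 CPM in CD4+ sp and 12.7 to 18.0 CPM in CD8A+ sp cells, nearly all of it NCR1, and their part in these differences was not tested. Of the 6 measured genes of the interferon-gamma receptor and its response, 0 passed without the block. With it IRF1 rose by 0.31 and JAK1 and SOCS1 fell by 0.31 and 0.73.

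To see where in each lineage the members lay, cells were put into exclusive classes by the UMIs of other genes, in a fixed order. CD4+ sp cells were classed by FOXP3 (the regulatory T cell factor), then GATA3 (the Th2 factor), then KLRK1 or GZMK (cytotoxic genes), then CXCR3 or CCR9 (homing receptors), then GPR25, then CCR7 with LEF1, then the rest. CD8A+ sp cells were classed by FCER1G with GZMB, FCER1G alone, GZMB alone, TOX, GZMK, CCR7 with LEF1, and the rest. FCER1G is an adaptor of innate-like lymphocytes, GZMB and GZMK are granzymes, and TOX is a factor of persistently stimulated T cells. A class is a set of cells with a detected transcript, not a cell type. CXCR3 and CCR9 were chosen as receptors of the Th1 cluster that the study found in these same cells. The study had already named IL18R1, IL12RB and IFNG in that cluster, and IFNG in a cluster with raised TOX. The results for these classes are therefore not independent of its annotation. Each was set against the mean of the other classes of its lineage, with equal weight for each class whatever its number of cells.

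On average IFNG in CD4+ sp cells was highest in the KLRK1 or GZMK class, at 39.8, 17.0, 7.39 and 26.3 CPM (22.6 ± 13.8). The CXCR3 or CCR9 class followed at 9.42, 19.2, 9.59 and 32.8 CPM (17.8 ± 11.03). The GATA3 class came next (3.97, 8.37, 12.1 and 19.4 CPM), then the FOXP3 class (4.997 ± 3.103) and the rest (3.91 ± 3.47). Only in dog 1 was the KLRK1 or GZMK class the highest, from 14 UMIs in 79 cells. The CXCR3 or CCR9 class was highest in dogs 2 and 4. In dog 3 it was the GATA3 class, with 14 of its 47 UMIs in 1 cell. IFNG was lowest on average in the GPR25 class (1.54 ± 0.34) and the CCR7 and LEF1 class (0.770, 1.68, 1.69 and 1.32 CPM). These values rest on 1 IFNG UMI in each dog in the former and on 3, 4, 3 and 1 in the latter. The SD of the former therefore does not measure how IFNG varies between dogs. The dogs' ranges overlapped between each pair of neighbours in this order. Against the other classes, IFNG rose by 2.13 log2 units in the KLRK1 or GZMK class (edgeR adjusted p = 0.00232) and by 2.11 in the CXCR3 or CCR9 class (adjusted p = 0.00266), and it fell by 2.34 in the CCR7 and LEF1 class (adjusted p = 0.00955). Without dog 2 the differences were 2.26, 2.13 and -2.52, and none of the 3 passed (adjusted p = 0.0665 to 0.148).

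IL12RB2 kept nearly the same order. It was at 19.9, 81.1, 61.6 and 108 CPM in the KLRK1 or GZMK class and at 17.5, 96.2, 34.1 and 109 CPM in the CXCR3 or CCR9 class, against 0, 4.20, 2.81 and 31.7 CPM in the CCR7 and LEF1 class. Dog 1 was the lowest of the 4 dogs in all 7 classes for this gene. The differences were 2.09 (adjusted p = 0.0113), 1.97 (adjusted p = 0.0302) and -2.44 (adjusted p = 0.0258), and none of these passed without dog 2 (2.06, 1.76 and -2.25, adjusted p = 0.184 to 0.502) or without dog 3 (2.08, 2.07 and -2.30, adjusted p = 0.126 to 0.133). IL18R1 varied less between dogs in the first of these, with 185, 156, 159 and 154 CPM in the KLRK1 or GZMK class. It was at 124, 144, 118 and 169 CPM in the CXCR3 or CCR9 class and at 21.1, 26.9, 28.1 and 71.4 CPM in the CCR7 and LEF1 class. Here the differences were 1.21 (adjusted p = 6.91e-05), 0.95 (adjusted p = 0.00385, and 0.88 with adjusted p = 0.182 without dog 2) and -1.499 (adjusted p = 1.74e-05). All 3 members thus rose in the KLRK1 or GZMK class, in which 2.24% of the 8650 genes tested rose, and in the CXCR3 or CCR9 class, in which 0.983% rose. The rise in the latter repeats what the study reported for its Th1 cluster and is not separate evidence. All 3 fell in the CCR7 and LEF1 class, where 13.9% of genes fell.

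In the GATA3 class, which held 25.6 to 31.3% of CD4+ sp cells, IFNG and IL12RB2 did not pass without the block, at differences of 1.14 and 1.03. With the dog as a block they did, at 1.12 (adjusted p = 0.00455) and 1.002 (adjusted p = 1.05e-05), 2 of 3 members where 0.925% of genes rose. The block also called a fall of IL12RB2 in the GPR25 class (-1.85, adjusted p = 0.00525), where 0.474% of genes fell, and of IL18R1 in the FOXP3 class (-0.47, adjusted p = 0.0449), where 8.14% fell. In all, 9 of 21 pairs of member and class passed in CD4+ sp cells and 13 with the block. Leaving out dog 2 reduced the 9 to 2. The GATA3 class is large, and it held 40.9 ± 14.002% of the IFNG UMIs of CD4+ sp cells, against 23.9 ± 12.6% in the CXCR3 or CCR9 class and 20.8 ± 6.04% in the KLRK1 or GZMK class. In dogs 1 to 4 the GATA3 class held 33.3, 32.8, 61.8 and 35.7%. The high value of dog 3 is 47 of 76 UMIs, and 14 of the 47 were in 1 cell. GATA3 was read before the genes of those classes, so cells with GATA3 and such a gene count in the GATA3 class. GATA3 itself stood lower in IFNG+ than in IFNG- CD4+ sp cells (98.7 against 111 CPM, -0.31). That difference did not pass without the block (edgeR adjusted p = 0.235).

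**Figure D2:**
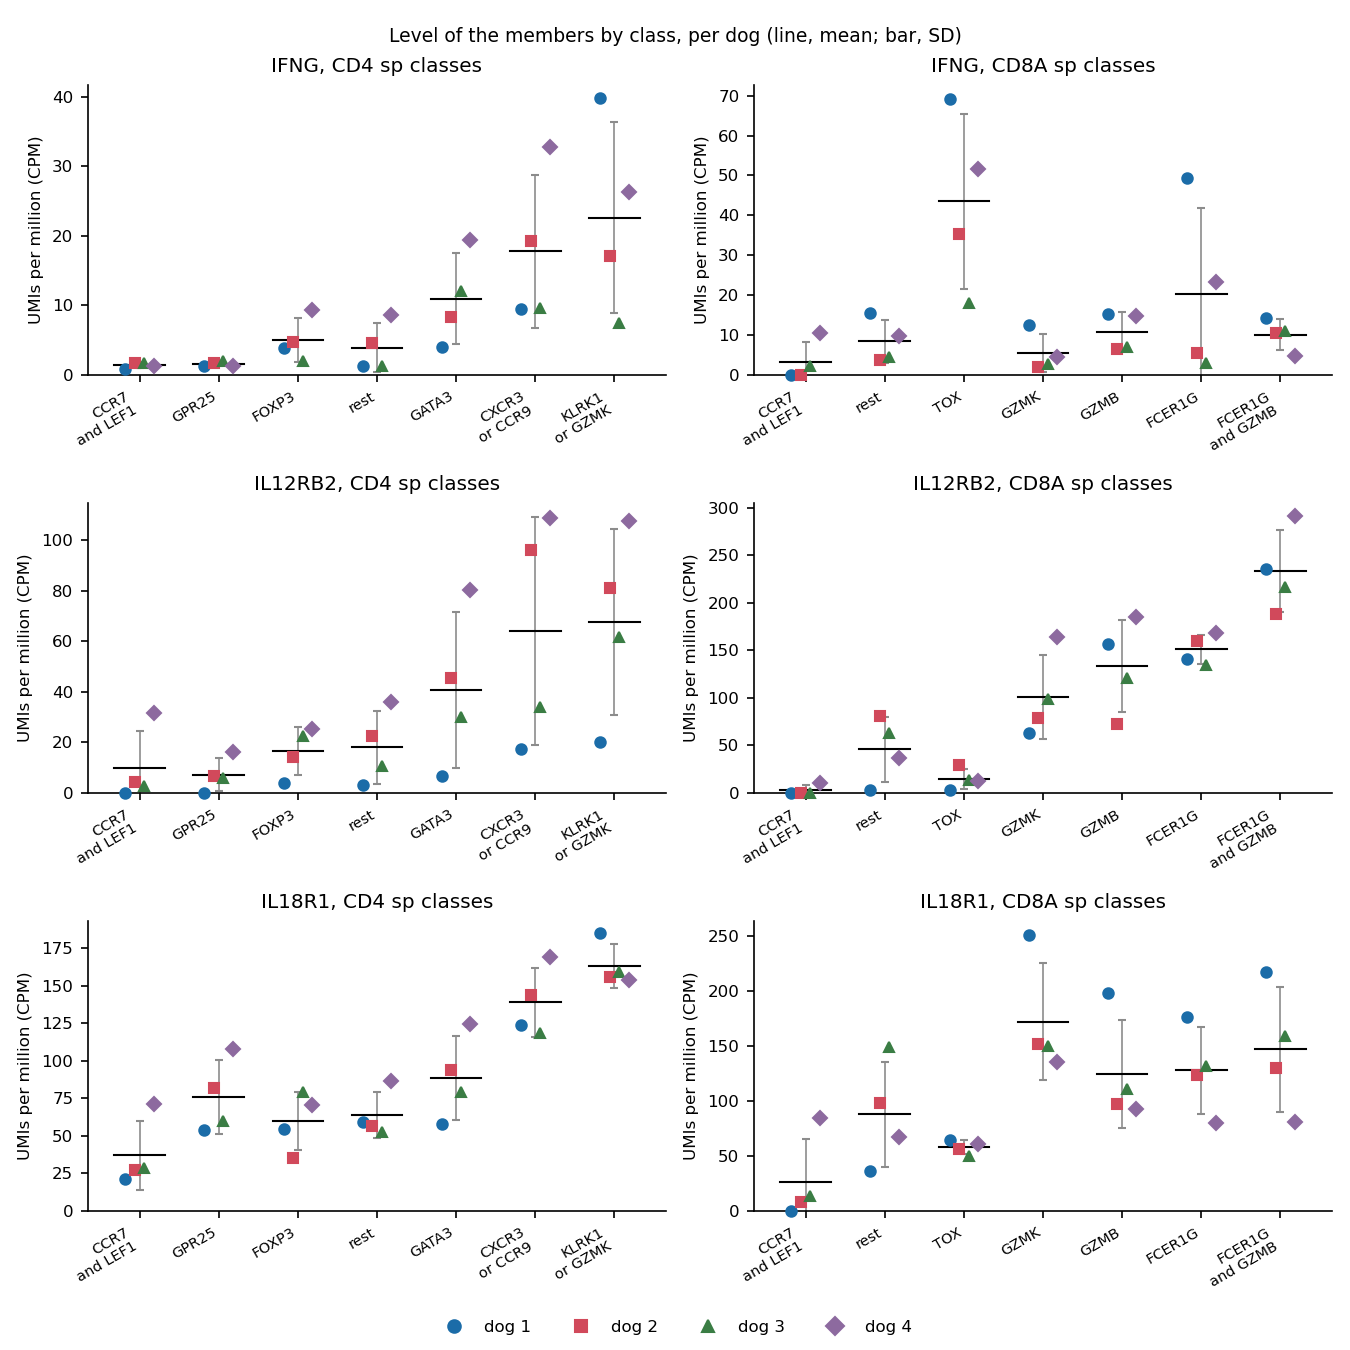
CPM of the 3 members (y axis) in the 7 classes of CD4+ sp cells and the 7 classes of CD8A+ sp cells (x axis), with 1 point per dog and the mean and SD (bars cut at 0). In CD4+ sp cells all 3 genes are high in the KLRK1 or GZMK and the CXCR3 or CCR9 classes, whereas in CD8A+ sp cells IFNG peaks in the TOX class, in which IL12RB2 and IL18R1 are low.

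In CD8A+ sp cells the members parted. IFNG was highest in the TOX class, at 69.3, 35.2, 17.9 and 51.6 CPM (43.5 ± 22.0), and 26.7, 12.2, 2.59 and 20.1% of these cells held an IFNG UMI. This was a difference of 2.69 ± 0.37 (edgeR adjusted p = 4.79e-05, and 7.37e-08 to 0.00229 over the alternatives), in a class in which 0.84% of the 6902 genes tested rose. The TOX class made up 5.09 to 12.5% of CD8A+ sp cells and held 33.2 ± 12.95% of their IFNG UMIs. The FCER1G class was next on average (20.3 ± 21.4 CPM), with 49.5 CPM in dog 1, from 7 UMIs in 27 cells, and 5.45, 2.9995 and 23.2 CPM in the others. IFNG was at 10.8 ± 4.83 CPM in the GZMB class and at 10.1 ± 4.00 CPM in the FCER1G and GZMB class, and neither passed.

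IL12RB2 in the same TOX cells was at 2.39, 28.8, 13.9 and 12.3 CPM, and IL18R1 at 64.5, 56.1, 49.6 and 60.5 CPM. Neither difference passed (-1.87, adjusted p = 0.525, and -0.62, adjusted p = 0.527). IL12RB2 was instead highest in the FCER1G and GZMB class, at 236, 189, 217 and 291 CPM, with a UMI in 50.5 ± 3.42% of the cells. The 4 dogs of this class lay above the 4 of the FCER1G class (141, 160, 135 and 168 CPM). That was 1 of 36 neighbouring pairs, over the 3 genes and both lineages, that did not overlap. The classes were ordered by these same values and no share over all genes was computed, so the count is a description only. It rose against the other classes in the FCER1G and GZMB class (2.71, adjusted p = 6.47e-09, with 6.49% of genes rising), the FCER1G class (1.996, adjusted p = 0.000157, 3.07%), the GZMB class (1.78, adjusted p = 5.79e-05, 6.42%) and the GZMK class (1.47, adjusted p = 0.0404, 0.927%). The rise in the GZMK class did not pass without dog 1, 3 or 4 (1.41, 1.42 and 1.69, adjusted p = 0.0503 to 0.284).

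IL18R1 rose in the GZMK class (251, 152, 150 and 135 CPM, 1.09, adjusted p = 0.0441), of which dog 1 had 21 cells, and in the FCER1G and GZMB class (218, 130, 159 and 81.1 CPM, 0.87, adjusted p = 0.0181). The former did not pass without dog 2 or 3 (1.05 and 1.16, adjusted p = 0.429 and 0.211), nor the latter without dog 1, 2 or 3 (0.65 to 0.86, adjusted p = 0.0636 to 0.129). With the block it also rose in the GZMB class (0.57, adjusted p = 0.0166), where 10.0% of genes rose, and it passed without dog 4 (0.75, adjusted p = 0.0452). The GZMB class held 51.75, 35.1, 44.9 and 48.7% of the IL18R1 UMIs of CD8A+ sp cells, in 38.2, 36.2, 51.9 and 48.6% of the cells. The CCR7 and LEF1 class of 278 cells was at the bottom for all 3. IL18R1 fell there by 2.73 log2 units (adjusted p = 0.000276), in a class where 7.88% of genes fell. It held 1 IL12RB2 UMI in all, in dog 4, and the level pooled over dogs was 0.00648 times that of the other classes (95% exact counting interval 0.000164 to 0.0361). It held 2 IFNG UMIs, a pooled ratio of 0.130 (0.0157 to 0.475). IL12RB2 passed here (adjusted p = 1.48e-05) and IFNG passed with the block alone (adjusted p = 0.0352, where 9.1% of genes fell). In all 9 of 21 pairs passed, 11 with the block and 6 to 9 with 1 dog left out.

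Over the 7 class means of a lineage, the likeness of the members was given by Pearson's r of log2(CPM + 10), as a description over points that share libraries. In CD4+ sp cells IFNG and IL12RB2 had r = 0.993, and of 7084 genes each was the most like the other. IFNG and IL18R1 had r = 0.908, and IL12RB2 and IL18R1 r = 0.890. After IL12RB2, the genes most like IFNG were ARF1, NOP10, FAM174A and CD244, at r = 0.985 to 0.989, so the first rank was by a narrow margin. Those most like IL18R1 were RNF24, ARHGEF3, LAPTM5, GSKIP and PPP1R14B. In CD8A+ sp cells IL12RB2 and IL18R1 remained alike (r = 0.909), but IFNG was like neither (r = -0.0302 with IL12RB2 and 0.118 with IL18R1). Its nearest genes there were SLC39A1, PPM1D, TERF2, TBRG1 and CEP43, whereas IL12RB2 was most like GPRC5C, HACD4, DGKZ, ZFP36 and VPS26A. Over the 14 classes of both lineages IFNG and IL12RB2 had r = 0.36.

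The same contrast appeared within single cells. For each dog an odds ratio of finding both genes in a cell was computed within 10 strata of UMIs per cell, so that deep cells did not by themselves create it. In CD4+ sp cells the odds ratios of IFNG with IL12RB2 were 15.3, 2.72, 2.84 and 2.59 in dogs 1 to 4. The value of dog 1 rests on 6 cells with both genes. IL12RB2 was found in 29.8 ± 9.06% of IFNG+ and 9.86 ± 7.13% of IFNG- cells, with 121 of 346 IFNG+ cells holding both. The ratios of IFNG with IL18R1 were 4.04, 2.69, 1.61 and 1.34, with IL18R1 in 44.7% and 23.3% of the cells. All 8 lay above 1. In CD8A+ sp cells the ratios of IFNG with IL12RB2 were 0.127, 0.559, 0.709 and 0.361, with IL12RB2 in 14.6 ± 7.86% of IFNG+ and 28.5 ± 4.62% of IFNG- cells. The value of dog 1 rests on 2 cells with both genes. The ratios of IFNG with IL18R1 were 0.554, 0.745, 0.655 and 0.583. The shares with IL18R1 were close, at 25.2 ± 3.25% of IFNG+ and 29.8 ± 3.44% of IFNG- cells. These 8 lay below 1. The receptor genes went together in both lineages, with ratios of 1.91 to 4.47 in CD4+ sp and 1.62 to 3.81 in CD8A+ sp cells. For each of these pairs the exact sign-flip permutation test over 4 dogs gave the smallest two-sided p that 4 dogs allow, which is 2 of 16 sign patterns and above 0.05.

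**Figure D3:**
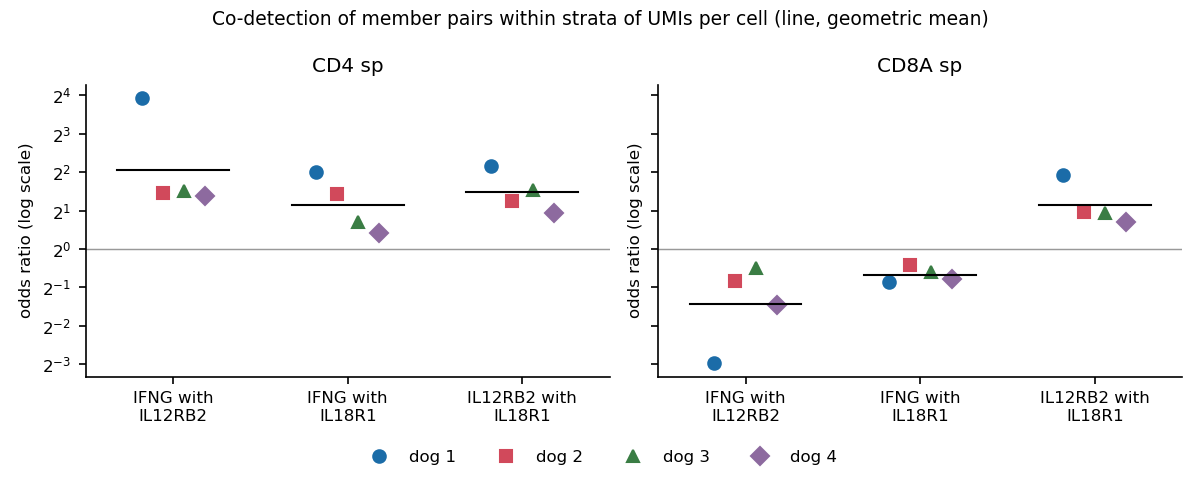
Odds ratio (y axis, log scale, stratified by UMIs per cell) of detecting both genes of a pair in a cell, for the 3 pairs of members in CD4+ sp and CD8A+ sp cells (x axis), with 1 point per dog and the geometric mean. IFNG goes with both receptor genes in CD4+ sp cells (above 1 in 4 of 4 dogs) and against both in CD8A+ sp cells (below 1 in 4 of 4 dogs).

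What else went with IFNG was tested on UMIs summed per dog over IFNG+ and IFNG- cells. IFNG itself chose the cells and was taken out. In CD4+ sp cells 89 of 9514 genes passed (0.935%), 51 higher and 38 lower in IFNG+ cells, and 687 with the block (7.22%). IL12RB2 was at 45.4, 90.7, 58.1 and 139 CPM in IFNG+ and at 3.76, 41.9, 25.3 and 69.5 CPM in IFNG- cells. It was higher in 4 of 4 dogs, by 1.39 ± 0.68 (edgeR adjusted p = 0.365) without the block and by 1.07 (adjusted p = 4.68e-08) with it. IL18R1 was at 123, 142, 125 and 132 CPM against 53.6, 86.1, 80.1 and 125 CPM, a difference of 0.53 (adjusted p = 0.300), or 0.40 with the block (adjusted p = 0.0311), with dog 4 close to level. Both receptor genes thus passed in the fit that compares cells within a dog, where 3.35% of genes rose. Against IFNG- cells of the same class and depth, in the same blocked fit, IL12RB2 was 0.55 higher (adjusted p = 0.0155) and IL18R1 0.08 higher, which did not pass.

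Among the 12 largest rises that passed in IFNG+ CD4+ sp cells were 8 genes of cell division. NUSAP1 (2.96 ± 0.36, adjusted p = 0.00383), CENPF (2.76 ± 0.37, adjusted p = 0.00564), PLK1 (2.72), SPC24 (2.46), MKI67 (2.38 ± 0.25, adjusted p = 0.00285), NCAPH (2.16), KIF11 (2.02) and KNL1 (1.83) act in the spindle, kinetochore or chromosomes of mitosis or mark proliferation. The rule that named these genes of cell division required a rise in 4 of 4 dogs. No list of such genes was fixed or tested. CENPF went from 8.70 to 57.2 CPM. In dog 1, with 29 IFNG+ cells, the rises of CENPF (0.093), SPC24 (0.31) and NUSAP1 (0.59) were small. Those of the rest ran from 0.96 (KIF11) to 2.07 (PLK1) in that dog. With 29 cells at a median of 4540 UMIs, a rise in dog 1 rests on few UMIs for most of these genes. Its direction there adds little to the 4 of 4. The chemokine gene CCL5 rose by 2.68 ± 0.30 (41.0 to 255 CPM, adjusted p = 0.00295), and SYT11, GNG3 and RCAN2 by 1.57 to 2.02. Lower in IFNG+ cells were the lymph node homing receptor CCR7 (-1.89, 185 to 56.2 CPM, adjusted p = 0.00902), the actin crosslinker ACTN1 (-2.87 ± 0.27, adjusted p = 0.00125), the collagen-binding integrin ITGA2 (-3.26), CCDC3 (-3.57), TSNARE1 (-2.92) and ADAM19 (-2.496). Of the 18 genes named here, 16 passed without dog 1, 15 without dog 4, 1 without dog 2 and 0 without dog 3.

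By list, in CD4+ sp cells, 1 of 9 measured Th1 cytokines and chemokine receptors rose (CCL5), and with the block 5 did, among them CCL4 by 2.01, CCR9 by 1.501 and CXCR3 by 1.003. The median difference of that list was 1.19 against -0.02 for all genes. No gene passed without the block among 5 of the IL-12 receptor and signal, 8 of the IL-18 receptor and signal, 6 of the interferon-gamma receptor and response, 6 Th1 factors, 10 cytotoxic genes, 12 activation genes, and 9 Th2, Th17 and Treg genes. With it IL12RB1 (0.93, adjusted p = 0.00326) passed beside IL12RB2, as did TBX21 (0.86, adjusted p = 0.00926) and the cytotoxic genes GZMB (1.77), CST7 (1.301), PRF1 (1.02) and KLRK1 (0.87). STAT4, at 251 against 249 CPM, passed in neither fit. Of 6 resting genes 2 fell, CCR7 among them, and 5 with the block. The IFNG+ cells were deeper (medians 4540 to 4932.5 UMIs against 3744 to 4065.5). Against negatives matched on depth 33 genes passed, and against negatives matched on class and depth 1 passed, or 287 with the block. Leaving out 1 dog gave 0 to 115, with 1 gene without dog 2 and 0 without dog 3 (edgeR, 1035 at an unadjusted p under 0.05).

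In CD8A+ sp cells 125 of 7959 genes passed (1.57%), 58 higher and 67 lower in IFNG+ cells, and 357 with the block (4.49%). Here too the IFNG+ cells were deeper (medians 4783.5 to 5502 UMIs against 3569 to 3907). Fewer genes passed against negatives matched on depth, and fewer still on class and depth, as given in the last section. IL12RB2 was at 11.2, 34.5, 39.6 and 51.2 CPM in IFNG+ cells and at 119, 95.4, 113 and 175 CPM in IFNG- cells. The groups did not overlap, and it fell by 1.81 ± 0.30 log2 units (adjusted p = 0.00999, and 3.92e-06 to 0.06004 over the alternatives, the last for a fall of 1.62 without dog 1), in a comparison in which 0.842% of genes fell. Against negatives of the same class and depth it was still lower, by 1.34 (adjusted p = 0.0375). IL18R1 was at 67.4, 61.4, 74.8 and 51.2 CPM against 149, 102, 120 and 88.7 CPM, without overlap. Its difference of -0.96 ± 0.22 missed the threshold without the block (adjusted p = 0.0550) and passed with it (-0.90, adjusted p = 0.000962), where 2.81% of genes fell.

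Beside IL12RB2, its signal transducer STAT4 fell by 1.07 ± 0.11 (328 to 163 CPM, adjusted p = 0.00111), so that 2 of 5 genes of the IL-12 list fell and 0 rose. Of 7 genes of the IL-18 list 0 passed without the block, and IL18R1 with it. Of 6 Th1 factors 2 fell, EOMES (-2.30 ± 0.32, 56.6 to 13.6 CPM, adjusted p = 0.00495) and BHLHE40 (-1.22, adjusted p = 0.00982), and TBX21 as well with the block (-1.12, adjusted p = 0.000127). Of 11 cytotoxic genes GZMK (-2.08) and KLRD1 (-1.31) fell, and 9 fell with the block, GZMB by 1.34 and FASLG by 1.69. The list median was -1.19 against 0.0046 for all genes. The other 2 cytotoxic genes did not pass in either fit: KLRK1 was level (324 against 323 CPM), and CST7, an inhibitor of granule proteases, stood higher in the IFNG+ cells of 4 of 4 dogs (0.40 ± 0.11, 107 to 148 CPM, adjusted p = 0.101). None of the 5 measured genes of the interferon-gamma receptor and response passed, and with the block IFNGR1 fell by 0.83.

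Genes higher in IFNG+ CD8A+ sp cells were CENPF (3.22 ± 0.52, 10.5 to 96.7 CPM, adjusted p = 0.00887), NUGGC (2.69), the Fc receptor-like gene FCRL5 (2.23), the decoy receptor gene TNFRSF6B (1.99), the cell cycle factor E2F3 (1.81), FES (1.76 ± 0.25, adjusted p = 0.00495), GCSAM (1.67), the protease gene FURIN (1.66 ± 0.23, adjusted p = 0.00486), the gut homing receptor CCR9 (1.51 ± 0.22, 39.8 to 118 CPM, adjusted p = 0.00596), UPB1, ALOX15 and BUB3 (1.416 to 1.495). The rise of CENPF was uneven, at 0.55, 0.97, 4.97 and 3.76 log2 units in dogs 1 to 4. CCR9 was 1 of 9 genes of the Th1 cytokine and receptor list to pass, joined by CCL5 (1.31) and CXCR3 (0.99), which rose, and CCL4 (-0.62), which fell, with the block. Among the genes that fell were SH2D1A, the adaptor SAP of innate-like T cells and natural killer cells (-2.11 ± 0.18, adjusted p = 0.000284), RAB31 (-2.61), the natural killer receptor NCR1 (-2.49) and PIK3R6 (-2.37). CTLA4 was 1 of 6 Th2, Th17 and Treg genes to pass (-1.81). CD3D, a chain of the T cell receptor complex, was higher (0.46, 447 to 640 CPM, adjusted p = 0.0303). Of the 23 genes other than the members named in this lineage, 10, 12, 13 and 5 passed without dogs 1, 2, 3 and 4.

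**Figure D4:**
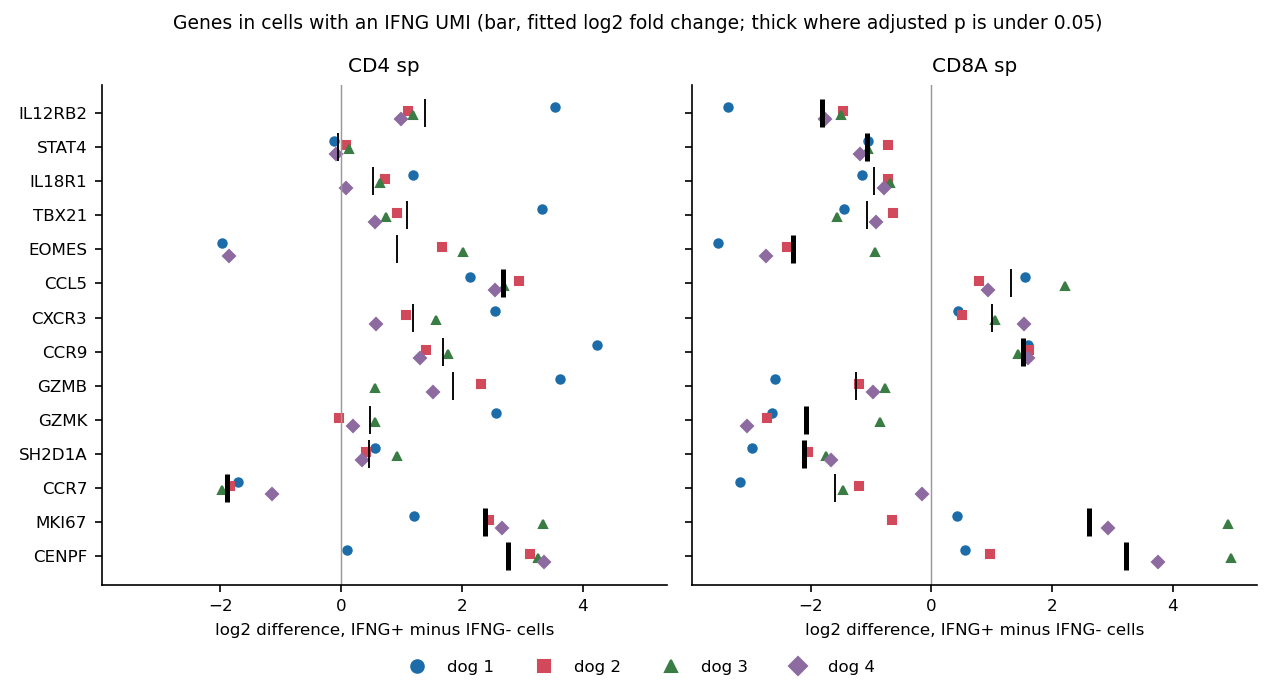
Difference between IFNG+ and IFNG- cells (x axis, log2) for IL12RB2, IL18R1 and other genes of the text (y axis) in CD4+ sp cells (left panel) and CD8A+ sp cells (right panel), with 1 point per dog and a vertical bar at the fitted difference without the block, thick where the adjusted p is under 0.05. CENPF lies to the right of 0 in both panels, while the bar of IL12RB2 is at 1.39 on the left and at -1.81 on the right.

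Of the 89 and 125 genes that passed, 16 were shared (18.0% of the former and 12.8% of the latter), and all 16 moved in the same direction, with CENPF, MKI67, CDC20 and TOX among the higher and CD27 and LBH among the lower. Whether the lineages differed was tested as an interaction, in which 9 of 8601 genes passed (0.105%) and 108 with the block (1.26%). The difference of IL12RB2 was -3.23 ± 0.93 (CD8A+ sp minus CD4+ sp, adjusted p = 0.253) without the block and -3.01 (adjusted p = 1.03e-07) with it, and of IL18R1 -1.50 ± 0.35 (adjusted p = 0.130) and -1.32 (adjusted p = 0.000413), in a fit in which 1.05% of genes had a lower change in CD8A+ sp cells. With negatives matched on class and depth in the blocked fit, IL12RB2 stayed past the threshold (-1.86, adjusted p = 0.000378) and IL18R1 did not (-0.65, adjusted p = 0.272). SH2D1A (-2.58, adjusted p = 2.39e-05), STAT4 (-1.04, adjusted p = 0.0141), LY6E (-1.27), TNFRSF25 (-1.36), BST2 (-1.92) and ITGB2 (-1.51) passed without the block. TCF7, a factor of resting T cells, passed in the other direction (1.17, adjusted p = 0.0412), with differences of -0.56 in CD4+ sp and 0.63 in CD8A+ sp cells that did not pass on their own. Of these 7 genes 6, 2, 1 and 5 passed without dogs 1, 2, 3 and 4.

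Transcripts of other cells were followed in the same groups. The B cell gene MS4A1 was at 0.474 to 2.98 CPM in IFNG- and 0 to 1.97 CPM in IFNG+ CD4+ sp cells, and at 0.134 to 1.71 CPM and 0 in CD8A+ sp cells. CD79B was at 0.266 to 0.541 CPM in IFNG- CD4+ sp and 0 to 0.804 CPM in IFNG- CD8A+ sp cells, with no UMI in IFNG+ cells of either lineage. The row named CD79A, by contrast, stood at 9287 to 10566 CPM in IFNG- and 6631 to 8163 CPM in IFNG+ CD4+ sp cells, and it was among the genes that fell (-0.52 in CD4+ sp and -0.62 in CD8A+ sp cells). The row named S100A8, on the myeloid list, was at 1203 to 2900 and 1989 to 3239 CPM in CD4+ sp cells, and at 910 to 1907 and 636 to 1278 CPM in CD8A+ sp cells. LYZ, on the same list, was at 0 in IFNG+ cells of both lineages and at 0.395 to 0.902 CPM in IFNG- CD4+ sp cells. Markers of natural killer cells summed to 13.7 to 19.3 CPM in IFNG- and 0 to 11.5 CPM in IFNG+ CD8A+ sp cells. Cells with more than 1 productive TRB chain, a sign of doublets, made up 3.23 to 16.3% of IFNG+ and 1.85 to 6.76% of IFNG- CD8A+ sp cells that had one. Without them 126 genes passed. The part of the other markers in the results was not tested.

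The T cell receptor gave a grouping that used no gene expression beyond the lineage. CD8A+ sp cells with the TCRα segments TRAV9-11 and TRAJ28, a pairing frequent in the cells that the study calls MAIT-like but found in other cells as well, numbered 153, 181, 244 and 97 in dogs 1 to 4, and were set against 3897 other CD8A+ sp cells with a productive TRA. The study found high FCER1G and raised GZMB in its MAIT-like cluster, so these cells can overlap the FCER1G and GZMB class above. That overlap was not counted, and the levels of the members here are not evidence separate from that class. The other CD8A+ sp cells were not matched on class. MAIT cells of other mammals have a nearly invariant TCRα chain and are known to answer interleukin-12 and interleukin-18 without antigen. The 4 most frequent TRA junctions of the 675 cells are given below to show the shared chain behind the grouping, each 48 bases from the conserved cysteine codon on, with capitals at the 7 positions (11 to 17) at which the 4 differ.

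Junction in 102 cells of 1 dog: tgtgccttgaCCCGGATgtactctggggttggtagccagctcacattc

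Junction in 38 cells of 3 dogs: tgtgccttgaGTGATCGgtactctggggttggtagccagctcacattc

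Junction in 35 cells of 1 dog: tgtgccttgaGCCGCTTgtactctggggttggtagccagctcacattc

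Junction in 25 cells of 3 dogs: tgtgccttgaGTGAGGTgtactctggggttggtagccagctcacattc

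In TRAV9-11/TRAJ28 cells IL12RB2 was at 265, 250, 256 and 321 CPM, against 56.6, 64.4, 93.0 and 132 CPM in the other cells, without overlap. It rose by 1.63 ± 0.22 (adjusted p = 0.00114, and 3.36e-09 to 0.0112 over the alternatives). IL18R1 was at 328, 167, 182 and 169 CPM against 76.6, 82.5, 111 and 81.8 CPM, and rose by 1.27 ± 0.21 (adjusted p = 0.00424). Thus 2 of 3 members rose where 2.49% of the 7463 genes tested did. IFNG went the other way, with 1.80, 2.90, 0 and 0 CPM against 33.5, 10.7, 9.28 and 20.3 CPM. In all 3 IFNG UMIs were found in the TRAV9-11/TRAJ28 cells, where 3 UMIs would be 3.64 CPM in dog 3 and 8.31 CPM in dog 4, and the pooled level was 0.0799 times that of the other cells (95% exact counting interval 0.0164 to 0.236). It fell, where 2.04% of genes did, with an adjusted p of 0.0358 that rose to between 0.0690 and 0.124 with any 1 dog left out. Of the TRAV9-11/TRAJ28 cells, 1, 2, 0 and 0 were among the IFNG+ CD8A+ sp cells above and 152, 179, 244 and 97 among the IFNG- cells. The IFNG- cells were not matched on the receptor. The part of TRAV9-11/TRAJ28 cells in the genes that fell with IFNG was not tested.

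Of the 5 IL-12 genes 2 rose in these cells, and of 7 tested IL-18 genes 3 rose. Beside the receptor genes, STAT4 rose by 0.90 (276 to 514 CPM, adjusted p = 0.00278), IL18RAP by 0.81 (adjusted p = 0.0296, in 3 of 4 dogs) and IRAK2 by 1.25, and IL12RB1 by 0.91 with the block. JAK2 (-0.36), MYD88 (-0.22), TYK2, IRAK1, IRAK4 and TRAF6 did not pass in either fit. Of 6 Th1 factors, EOMES rose by 1.496 (40.8 to 117 CPM) and RUNX3 by 0.91, while ZNF683, a factor of tissue-resident T cells, fell by 1.86 (80.5 to 19.0 CPM, adjusted p = 0.00676, in 4 of 4 dogs), with TBX21 at 0.78 and BHLHE40 at 0.55 passing with the block. The tissue homing receptor CXCR6 rose by 1.89, whereas CCR9 (1.33 against 55.4 CPM) and CXCR3 (3.45 against 42.2 CPM) fell. Of 11 cytotoxic genes 8 rose, GZMA by 1.51, PRF1 by 1.41, KLRD1 by 1.304 and GZMB by 1.06 log2 units. The cells were somewhat shallower than the others (medians 3299 to 3698 against 3895 to 4286 UMIs). Markers of natural killer cells summed to 30.7 to 82.7 CPM in TRAV9-11/TRAJ28 and 7.43 to 13.8 CPM in the other cells, and NCR1 of that list rose by 2.39. S100A8 was at 438 to 1289 against 975 to 1942 CPM. The part of these genes in the result was not tested.

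**Figure D5:**
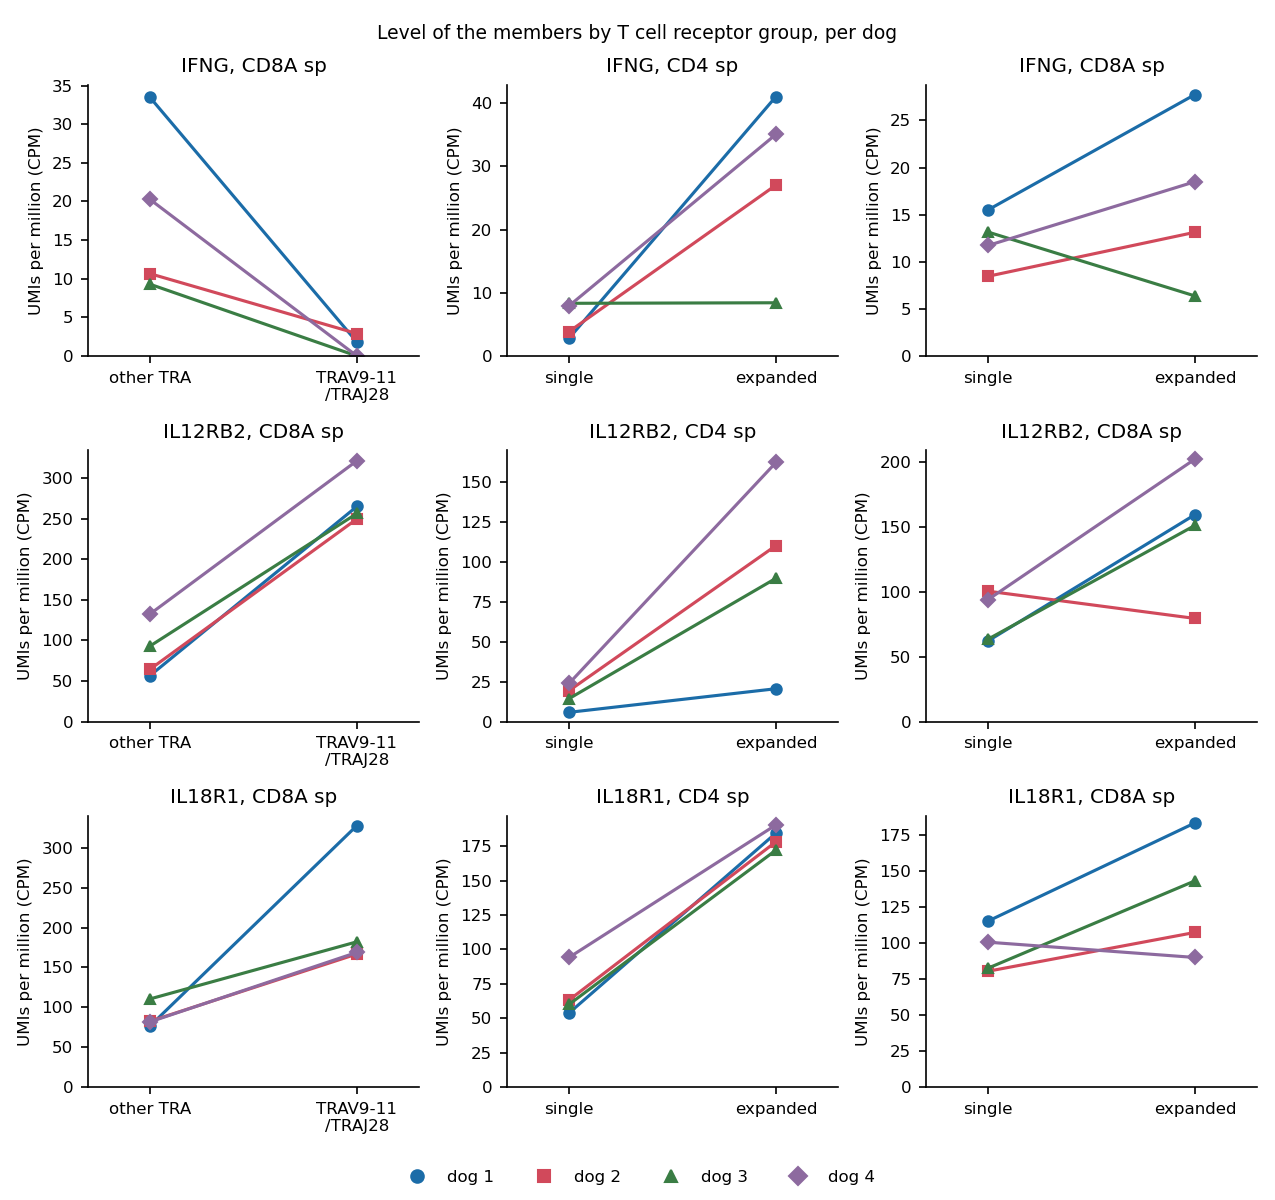
CPM of the 3 members (y axis) in TRAV9-11/TRAJ28 and other CD8A+ sp cells, and in expanded and single clones of CD4+ sp and CD8A+ sp cells (x axis), with 1 point per dog and a line joining the points of a dog. IL12RB2 and IL18R1 are higher in TRAV9-11/TRAJ28 cells of each dog while IFNG is near 0 there, and all 3 are higher in expanded than in single CD4+ sp clones, with IFNG of dog 3 close to level.

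Cells with 1 productive TRA and 1 productive TRB chain were also grouped by clone, meaning the same V, J and junction of both chains in a dog. CD4+ sp cells of expanded clones (3 or more cells) numbered 11, 437, 260 and 749, and cells seen once 1788, 1272, 1116 and 966. IL12RB2 was at 20.5, 110, 89.5 and 162 CPM in expanded and at 5.74, 19.3, 14.3 and 23.8 CPM in single clones, and rose by 2.94 ± 0.33 (adjusted p = 0.000561). IL18R1 was at 185, 178, 172 and 191 CPM against 53.8, 63.2, 60.0 and 94.2 CPM, without overlap, and rose by 1.39 ± 0.15 (adjusted p = 0.000358). IFNG was at 41.0, 27.0, 8.42 and 35.0 CPM against 2.80, 3.86, 8.33 and 7.93 CPM, with dog 3 close to level, and rose by 2.16 ± 0.40 (adjusted p = 0.00663, and 0.0725 without dog 2). All 3 members rose, where 3.88% of 8985 genes did. The values of dog 1 rest on 11 expanded cells. The row named S100A8, on the myeloid list, was at 2666 to 3496 CPM in expanded and 1197 to 2506 CPM in single clones, without overlap. LYZ, on the same list, was at 0 in expanded and at 0.551 to 1.28 CPM in single clones. The part of S100A8 in the result was not tested.

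The genes that rose with them were the partner chain IL18RAP (1.24), TBX21 (1.31, adjusted p = 0.0213), ZNF683 (1.15), the receptors CCR9 (3.24, 25.0 to 200 CPM) and CXCR3 (1.39), and 3 of 10 tested cytotoxic genes, KLRK1, PRF1 and KLRD1 (2.22 to 3.002). The protease gene CTSW of the same list fell by 1.39 (adjusted p = 0.00999, in 4 of 4 dogs), and the other 6 did not pass without the block. STAT4 did not pass (237 and 273 CPM). Of 6 resting genes 4 fell, CCR7 from 207 to 59.9 CPM. Expanded cells were deeper in each dog (medians 4100 to 4990.5 UMIs against 3881.5 to 4019.5). Conversely, 13.3, 59.7, 26.7 and 77.4% of IFNG+ CD4+ sp cells with both chains belonged to expanded clones, against 0.489, 22.5, 17.5 and 37.4% of IFNG- cells. The IFNG+ cells were spread over 13 to 57 clones per dog, and the most in 1 clone were 13 of its 68 cells, in dog 4.

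In CD8A+ sp cells the comparison of expanded and single clones called 0 of 3 members, and 66 of 8000 genes (0.825%) in all. IL12RB2 was at 159, 79.4, 151 and 202 CPM in expanded and at 62.0, 100.4, 63.4 and 93.9 CPM in single clones, higher in 3 of 4 dogs (0.85, adjusted p = 0.185). Without dog 2 the difference passed at 1.19 (adjusted p = 0.0137), but that fit leaves out the only dog in which it was lower. Over all alternatives its adjusted p ran from 0.0137 to 0.609. IL18R1 (0.41, adjusted p = 0.499) and IFNG (0.26, adjusted p = 0.887; 27.8, 13.1, 6.38 and 18.5 against 15.5, 8.46, 13.2 and 11.7 CPM) did not pass. The cytotoxic genes KLRK1 and CST7 rose and the resting genes CCR7 and LEF1 fell in expanded clones, and with the block 6 of 11 cytotoxic genes rose.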

How the data were processed

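Libraries were processed by the authors with Cell Ranger 5.0.1 against CanFam 3.1, and the deposited values are raw counts (UMIs per gene and cell) in 4 gene expression matrices and, as V(D)J tables, receptor chains per cell in 4 libraries. Of the 20257 rows, 13155 had UMIs in at least 3 cells of a dog. The gene list of dog 1 did not have the length of its matrix (27980 lines), so the list of dog 2, which fits all 4 matrices, was used. UMIs were summed per dog and group, with a class needing 20 cells, and tested with edgeR 4.0.16 (R 4.3.3; TMM, filterByExpr, glmQLFit and glmQLFTest, two-sided) with Benjamini-Hochberg adjustment over all genes tested and a threshold of 0.05. SE is the log2 difference divided by the square root of F. Values not fitted were computed with Python 3.11.15, numpy 2.4.6, pandas 2.3.3 and scipy 1.17.1.

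Groups being compared came from the same dogs. The deviations from group means of the 2 sums of a dog correlated in each dog and comparison (r = 0.11 to 0.81), so a fit with the dog as a block is given where it changes a call. Alternatives were no filter, DESeq2 1.42.0, removal of each dog, removal of cells with more than 1 TRB, a mitochondrial limit of 5%, thinning to 2000 UMIs, and up to 5 IFNG- cells per IFNG+ cell matched on UMIs. Matching on class as well was added after the data were seen. The 6 main fits of 2 groups were tested on simulated data, the others were not. The edgeR p-values without the block measure the spread between sums and treat the sums of a dog as independent. Those with the block measure the spread left once the level of each dog is taken out. Counting intervals (95%) and floors (3 UMIs) cover counting error only.

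Genes were named by rule: the members, the listed pathway genes, and in each IFNG comparison the 12 largest rises and 6 largest falls past the threshold in the same direction in 4 of 4 dogs that carry a symbol, receptor genes left out (for the interaction, the 6 smallest p). CCR7, CDC20, TOX, CD27, LBH and CD79A are named from the lists or as shared genes. Members, lists and classes were chosen with earlier results of these data known. Coordinates and gene sequences were not used here, and a few genes that met the rule or are listed are not reported here.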

Additional observations from a re-analysis of the deposited data

Results flagged for a closer look

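Over 80 sets of 4 dogs, 9 had a dog set apart from the other 3 by more than the 95% critical value of Dixon's test, and chance alone sets apart about 1 in 20. In 6 of the 9 the high dog was dog 4. IFNG stood at 16.004 CPM in its dn cells and at 17.7 CPM in all of its cells. In the CCR7 and LEF1 class of CD4+ sp cells dog 4 had 31.7 CPM of IL12RB2 and 71.4 CPM of IL18R1. In the same class of CD8A+ sp cells, of which dog 4 had 22 cells, it had 10.5 CPM of IL12RB2, from 1 UMI, and 84.2 CPM of IL18R1. Dog 1 was the high one for IL18R1 in the KLRK1 or GZMK class of CD4+ sp cells (185 CPM), in the GZMK class of CD8A+ sp cells (251 CPM, 21 cells) and in TRAV9-11/TRAJ28 cells (328 CPM).

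Of the 9 genes whose change with IFNG differed between CD8A+ sp and CD4+ sp cells by the interaction test, 7 met the naming rule: SH2D1A by -2.58, LY6E by -1.27, STAT4 by -1.04, TNFRSF25 by -1.36, BST2 by -1.92, ITGB2 by -1.51 and TCF7 by 1.17 log2 units.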

How the results depend on the processing

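With the dog as a block (replicate block) more genes passed: 2742 between lineages, 687 and 357 with IFNG in CD4+ sp and CD8A+ sp cells, 108 for the interaction, 620 for TRAV9-11/TRAJ28, and 1203 and 258 for expanded CD4+ sp and CD8A+ sp clones. IL12RB2 between lineages passed at 1.91, and the other calls that the block changed stand beside their results. DESeq2 called 350, 314, 56, 277 and 118 (IFNG in CD4+ sp, in CD8A+ sp, interaction, CD4+ sp clones, CD8A+ sp clones). Without the filter on low counts 225 genes passed with IFNG in CD8A+ sp cells and 112 for CD8A+ sp clones. With negatives matched on UMIs 33, 49 and 2 passed (CD4+ sp, CD8A+ sp, interaction), with negatives matched on class and UMIs, an alternative chosen after seeing the data, 1, 22 and 0, and with the block added 287 in CD4+ sp cells and 23 for the interaction (edgeR, 365 at an unadjusted p under 0.05 beside the 0). The cause of these moves was not tested.

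Leaving out 1 dog gave 704 to 1268 genes between lineages, 0 to 115 and 38 to 82 with IFNG in CD4+ sp and CD8A+ sp cells, 1 to 10 for the interaction, 119 to 263 for TRAV9-11/TRAJ28, 149 to 537 and 21 to 42 for clones, and 2 to 9 member and class pairs in CD4+ sp cells. Between lineages IFNG ranged from -0.073 to 0.91 and IL12RB2 from 1.36 to 2.07. IFNG ranged from -4.93 to -3.36 in TRAV9-11/TRAJ28 cells and from 1.92 to 2.72 in CD4+ sp clones, and IL12RB2 from 0.71 to 1.19 in CD8A+ sp clones. Differences that did not pass changed sign for IFNG (-0.38 to 0.035) and IL12RB2 (-0.68 to 0.086) in the FOXP3 class, IL18R1 in the GPR25 class (-0.13 to 0.043), IFNG in the FCER1G and GZMB class (-0.20 to 0.74) and, in the rest of CD8A+ sp cells, IL12RB2 (-0.16 to 0.94) and IL18R1 (-0.16 to 0.50).

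Shares of cells with a UMI depend on depth. Thinned to 2000 UMIs, IL18R1 was found in 13.3% (CD4+ sp) and 18.2% (CD8A+ sp) and IL12RB2 in 19.1% (CD8A+ sp). At 2 or more UMIs the shares were 8.11% and 10.2% for IL18R1, 11.8% for IL12RB2 and 1.06% for IFNG in CD8A+ sp cells. Without strata of UMIs the log2 odds ratio of IFNG with IL18R1 in CD8A+ sp cells was -0.33.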
